A study of Homo sapiens with 12 samples.

Results

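The genes followed here were 40 genes of epithelial cell junctions and keratin filaments, with vimentin as the mesenchymal contrast, chosen by name out of 35238 genes in the deposited table. They comprised 5 cadherins, 5 genes of the catenin and nectin complexes, 12 tight junction genes, 8 desmosome genes, 2 gap junction genes, 6 keratins, EPCAM and VIM, and all 40 had a row (AFDN under its older symbol, MLLT4). Expression was measured by RNA sequencing of polyadenylated RNA in HK-2 cells, an immortalised human kidney proximal tubule line, in 4 groups of 3 libraries. All cells were transfected with 10 nM of an siRNA duplex and treated at the same time for 24 hours. SCR DMSO cells received scrambled siRNA and vehicle, SCR AAI cells scrambled siRNA and 25 µM aristolochic acid I (AAI), siB DMSO cells siRNA against POLR2A and vehicle, and siB AAI cells siRNA against POLR2A and 25 µM AAI. AAI is a plant nephrotoxin that forms DNA adducts in proximal tubule cells, and POLR2A encodes RPB1, the catalytic subunit of RNA polymerase II. Nothing in the labels says that the 3 libraries of a group came from separate cultures, so p-values measure the spread between these libraries, which may be technical.

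Epithelial cells are held together by several kinds of junction. Cadherins bind neighbouring cells at adherens junctions and are tied to actin by catenins, claudins and occludin seal the space between cells at tight junctions, desmosomal cadherins, plakophilins, plakoglobin and desmoplakin link the membrane to keratin filaments, and connexins form gap junction channels. In the kidney, the set of claudins differs between nephron segments and sets which ions pass between cells, with CLDN2 as the cation pore of the proximal tubule. When tubule cells are injured or lose their differentiated state, junction genes and keratins are among the genes most often followed, together with vimentin.

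POLR2A was lower in the libraries labelled siB. It stood at 284 ± 24.2 CPM (reads scaled to 1000000 per library, mean ± SD, n = 3) after scrambled siRNA and 140 ± 2.61 CPM after POLR2A siRNA under DMSO, and at 707 ± 30.1 and 232 ± 29.5 CPM in the same order under AAI. Libraries held 15844015 to 42805294 reads, which puts the limit that a count of 0 allows (3 reads) between 0.0701 and 0.189 CPM, for counting error only. Replicates of a group differed by more than sampling noise, with a chi-square per degree of freedom of at least 4.23. The deepest library, SCR DMSO replicate 2, stood apart from its group. Of the proximal tubule markers, GGT1 (96.0 to 184 CPM), DPP4 (28.3 to 302 CPM) and PAX8 (at most 418 CPM) were present in every library, whereas the transporters SLC22A6 (at most 0.0631 CPM) and SLC22A8 (at most 0.0234 CPM) and the endocytic receptor LRP2 (at most 1.20 CPM) were near 0. Of 8 endothelial markers, 1 (PECAM1) had a mean of at least 1 CPM in each DMSO group, 2 in SCR AAI and 3 in siB AAI, and their sum was 2.10 to 4.62 CPM under DMSO and 3.53 to 3.81 CPM under AAI in SCR cells, and 2.45 to 3.88 CPM under DMSO and 7.72 to 11.5 CPM under AAI in siB cells. Of 8 leukocyte markers, 1 (CD68) reached that mean in each DMSO group, 3 in SCR AAI and 4 in siB AAI, with CD3E at 0 in all 12 libraries and sums between 61.1 and 98.7 CPM. The 8 fibroblast markers summed to 65.0 to 85.4 CPM under DMSO and 41.7 to 49.4 CPM under AAI in SCR cells, and 64.2 to 68.3 CPM under DMSO and 47.7 to 55.2 CPM under AAI in siB cells, and no marker of the 8 was at 0 in all libraries. The 10 markers of the thick limb, distal tubule and collecting duct summed to 1.66 to 2.57 and 3.04 to 7.45 CPM without and with AAI in SCR cells, and to 1.67 to 1.94 and 14.9 to 19.4 CPM in siB cells. Of these 10, 0 had a mean of at least 1 CPM in each DMSO group, 2 in SCR AAI and 7 in siB AAI. The 20 proximal tubule markers summed to 576 to 862 CPM over all libraries. Only 6 of the 20 reached that mean in SCR DMSO, 9 in SCR AAI, 7 in siB DMSO and 12 in siB AAI. The part of these shifts in the values of junction genes was not tested.

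Junction and keratin genes differed widely in level. Per kb of merged exon length, the highest mean levels in SCR DMSO were those of VIM (340 CPM per kb), KRT19 (152 CPM per kb), KRT18 (124 CPM per kb), CLDN1 (121 CPM per kb), KRT8 (93.9 CPM per kb) and KRT80 (87.2 CPM per kb). KRT8 and KRT18 form the keratin pair of simple epithelia. The cadherin best expressed per kb was CDH6 (35.7 CPM per kb), the cadherin of the embryonic proximal tubule, followed by CDH2 (16.3 CPM per kb), whereas CDH1, the E-cadherin of distal segments, stood at 2.19 CPM per kb. At the other end were KRT81 (0.694 CPM per kb) and CLDN7 (0.118 CPM per kb). CLDN7, a claudin of distal segments, lay between 0.0902 and 0.947 CPM in all 12 libraries and was too low to be tested. In all, 35 of the 40 genes were above 1 CPM in every library.

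In cells injured with AAI after scrambled siRNA, 1 of the 39 genes tested passed at an adjusted p under 0.05, namely CLDN2, which was lower (limma on log2 of CPM plus 1, Benjamini-Hochberg over all genes tested). In comparison, 3.36% of all 14228 genes tested passed lower and 8.98% higher, and 2.73% and 7.73% did so with a change of at least 2-fold. No junction or keratin gene passed higher. The median log2 change of the 39 genes was -0.48 against 0.18 for all genes, with 30 of the 39 below 0. Same-numbered libraries of both groups deviated together, and with the replicate number as a block 8 of these genes passed lower, which were CLDN2, CLDN3, CLDN4, JUP, CTNND1, CDH6, KRT7 and KRT19. Left-out libraries also moved this count. It was 11 without SCR DMSO replicate 2 and 0 without SCR DMSO replicate 1 or 3 or without SCR AAI replicate 2 or 3, and in the fit over all 4 groups it was 9, with 1 gene higher. Calls over all genes moved as well, from 478 lower as first fitted to 911 with the block. They were 1238 without SCR DMSO replicate 2, 118 to 341 where the count of members was 0, and 1318 of 15325 over all 4 groups.

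AAI after knockdown of POLR2A gave more calls. Of 38 genes tested, 21 passed lower and 1 passed higher, against 21.8% lower and 30.4% higher among all 14928 genes tested. A change of at least 2-fold was reached by 7 of the genes that passed lower and by none that passed higher, against 5.79% and 13.9% of all genes. The 7 were CLDN2, KRT19, CLDN3, CLDN4, JUP, CDH6 and PKP2. The median log2 change was -0.48 against 0.10 for all genes. Of the 21 calls, 10 were also made in every alternative fit in which the gene was tested (CLDN2, CLDN3, CLDN4, CTNND1, JUP, KRT19, KRT80, PKP2, PKP3 and VIM, of which CLDN3 and PKP3 were not tested with a mean CPM filter of 5), as was the single higher call, MARVELD2, and in the fit over all 4 groups 10 passed lower. That last fit called 2103 of all 15325 genes lower. In bulk RNA, fewer cells expressing a gene and less of its RNA per cell cannot be told apart, and CPM gives shares of the sequenced RNA rather than amounts per cell.

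Knockdown gave fewer calls than AAI did in siB cells, both among these genes and among all genes. Under AAI, siB cells were lower than SCR cells in 3 of 38 genes tested (CLDN2, CLDN4 and KRT19) and higher in none, against 3.79% lower and 5.49% higher among 14946 genes, and 0.629% and 3.04% with a change of at least 2-fold. None of the 3 reached 2-fold. Same-numbered libraries deviated together here too, and with the replicate block 12 passed lower (CDH16, CLDN1, CLDN2, CLDN4, CLDN12, GJA1, JUP, KRT18, KRT19, KRT80, PKP2 and VIM) and 3 passed higher (CDH1, CTNNA1 and DSG2). The block also raised the calls over all 14946 genes, to 2057 lower and 2268 higher, from 567 and 820. In vehicle-treated cells none of 38 passed in either direction, and neither did any of all 13606 genes (0% lower, 0% higher), although 644 of these genes and 1 of the 38, CLDN2, had an unadjusted p under 0.05 in limma. No fit tried called any of the 38 genes in vehicle-treated cells. As first fitted, POLR2A itself did not pass there, at 284 ± 24.2 CPM in SCR DMSO and 140 ± 2.61 CPM in siB DMSO. The smallest adjusted p of all genes in limma was 0.257. The absence of calls in vehicle is thus no evidence that these genes were unchanged. The comparisons share libraries: those of SCR DMSO, for example, enter both the AAI comparison in SCR cells and the knockdown comparison in vehicle.

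**Figure D1:**
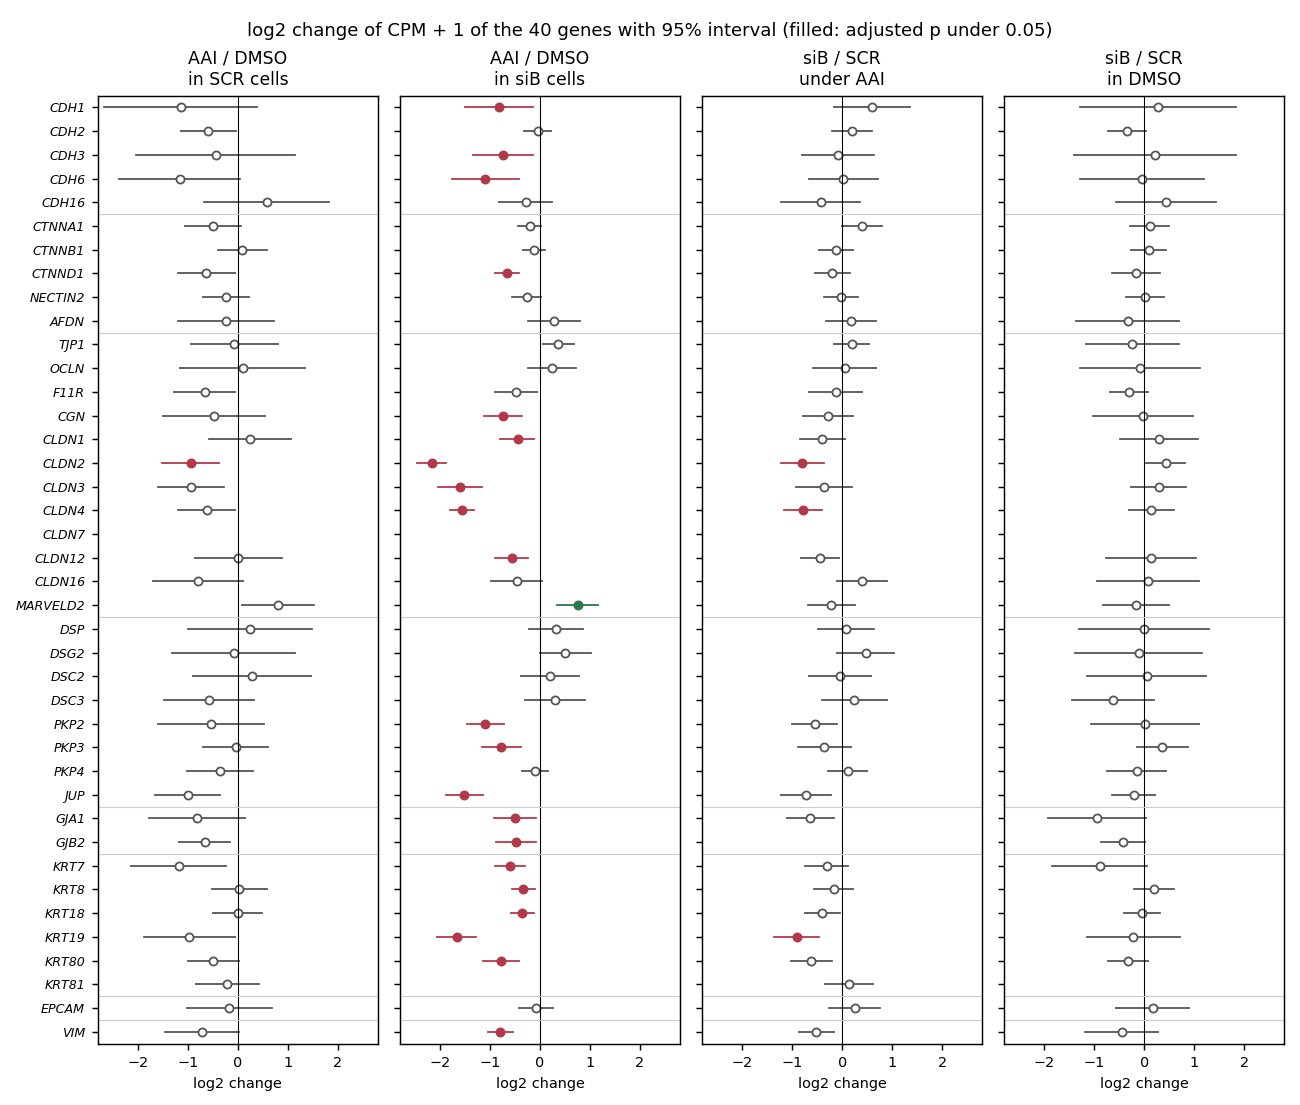
log2 change (x axis, log2 of CPM plus 1) of the 40 genes (y axis, grouped by role) in the 4 comparisons, as points with 95% intervals; filled points passed at an adjusted p under 0.05, red for lower and green for higher, and genes without a point were not tested. In siB cells 21 genes passed lower and MARVELD2 passed higher with AAI, against CLDN2 alone in SCR cells, where the intervals are wider. The fits shown have no replicate block, with which 8 genes passed lower with AAI in SCR cells.

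Of the 40 genes, the largest change with AAI in siB cells was that of a tight junction gene, CLDN2. This gene (chromosome X, 106900164 to 106930861, plus strand, hg38), the cation-pore claudin of the proximal tubule, stood at 67.5, 91.3 and 73.1 CPM under DMSO and 51.0, 35.9 and 33.4 CPM under AAI in SCR cells. The siB cells had 109, 102 and 99.4 CPM under DMSO and 26.0, 21.9 and 19.4 CPM under AAI. No pair of compared groups overlapped, with siB DMSO the highest and siB AAI the lowest. The log2 change with AAI of CLDN2 was -0.94 (SE 0.25, adjusted p 0.046) for SCR and -2.16 (SE 0.13, adjusted p 3.3e-06) in siB cells. The first of these calls was lost without SCR DMSO replicate 1 or 3 or any SCR AAI library (log2 changes of -1.03, -0.98, -1.12, -0.88 and -0.83), whereas the second was made in all 15 alternatives. Under AAI, siB cells were lower than SCR cells by -0.80 (SE 0.20, adjusted p 0.0295, with the replicate block 9.0e-06), a call that was lost without SCR AAI replicate 2 or 3 (-0.86 and -0.91) or siB AAI replicate 2 or 3 (-0.78 and -0.70). In vehicle siB cells had 0.43 more on the log2 scale (SE 0.16), which did not pass (adjusted p 1).

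The AAI response itself was also compared between SCR and siB cells, and CLDN2 was the only gene of the 40 to pass. Its interaction of siRNA and AAI was -1.22 (log2, SE 0.27, 95% interval -1.81 to -0.64, adjusted p 0.0452), and 1 of 39 genes tested passed, against 1.61% of all 15325 genes. With the replicate block the adjusted p was 0.0296. The estimate stayed between -1.35 and -1.04 over 20 alternatives, but passed in 4 of them, and its call was lost when any library other than SCR DMSO replicate 2 was left out. For CLDN4 the interaction was -0.93 (95% interval -1.51 to -0.36, adjusted p 0.117) and for KRT19 it was -0.69 (95% interval -1.73 to 0.34, adjusted p 0.619) and neither passed. Without SCR DMSO replicate 2, the library that stood apart, both did, CLDN4 at -1.05 (adjusted p 0.0296) and KRT19 at -1.16 (adjusted p 0.034), as did TJP1 (0.89, adjusted p 0.0422) and CLDN2 (-1.35, adjusted p 0.0154).

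CLDN4 (chromosome 7, 73799542 to 73832690, plus strand), a claudin that limits paracellular cation flow, was measured at 174, 186 and 124 CPM under DMSO and 125, 105 and 83.2 CPM under AAI in SCR cells, and 160.5, 187 and 181 CPM under DMSO and 61.7, 56.1 and 59.6 CPM under AAI in siB cells. The siB AAI libraries lay below all others, and the SCR groups overlapped. AAI lowered CLDN4 by -1.56 (SE 0.11, adjusted p 5.8e-06) in siB cells, and the change of -0.62 (SE 0.25) in SCR cells did not pass (adjusted p 0.155, with the replicate block 0.0479). The siB and SCR libraries under AAI differed by -0.79 (SE 0.17, adjusted p 0.0168), which was lost without siB AAI replicate 2 (-0.75) or 3 (-0.80). The neighbouring CLDN3 (chromosome 7, 73768997 to 73770270, minus strand), a sealing claudin, was low, at 6.15, 3.50 and 4.30 CPM under DMSO and 2.37, 2.36 and 1.14 CPM under AAI in SCR cells, and 5.86, 5.997 and 5.46 CPM under DMSO and 1.64, 0.738 and 1.45 CPM under AAI in siB cells. With AAI it fell by 1.60 on the log2 scale in siB cells (SE 0.20, adjusted p 1.7e-04), and the change in SCR cells was -0.94 (SE 0.28, adjusted p 0.0722, with the replicate block 0.0384), with no overlap between groups in either.

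MARVELD2 (chromosome 5, 69415065 to 69444330, plus strand) encodes tricellulin, the protein of junctions where 3 cells meet. It was the only member to pass higher with AAI in siB cells as first fitted. It stood at 8.87, 4.04 and 6.84 CPM under DMSO and 13.8, 10.4 and 11.3 CPM under AAI in SCR cells, and 5.39, 5.55 and 5.63 CPM under DMSO and 12.7, 9.32 and 8.36 CPM under AAI in siB cells. Every AAI library of a siRNA lay above its vehicle libraries. The rise was 0.75 (SE 0.18, adjusted p 0.007) in siB cells, and the change in SCR cells was 0.80 (SE 0.31, adjusted p 0.145). The annotated 3' end of RAD17 lies 264 bases before MARVELD2 on the same strand. RAD17 had 13.4 ± 8.41 CPM under DMSO and 17.7 ± 3.94 CPM under AAI in SCR cells, and 12.3 ± 2.65 CPM under DMSO and 15.9 ± 2.09 CPM under AAI in siB cells (SD, n = 3), and the part of reads from it in the MARVELD2 values was not tested.

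The other tight junction genes tested moved less with AAI in siB cells. In SCR cells CLDN16 (-0.80) and F11R (-0.66) had larger changes than CLDN4 (-0.62), and none of these passed as first fitted. CGN (cingulin, a cytoplasmic plaque protein) changed by -0.74 (SE 0.16, adjusted p 0.00444) with AAI in siB cells, CLDN12 by -0.57 (SE 0.14, adjusted p 0.00859) and CLDN1, a barrier-forming claudin, by -0.45 (SE 0.15, adjusted p 0.0293). All 3 calls were lost in the fit over all 4 groups (adjusted p 0.135, 0.168 and 0.264), and that of CLDN1 also without siB DMSO replicate 1 (-0.34) or siB AAI replicate 1 (-0.30). TJP1 (ZO-1, the scaffold that ties claudins to actin) was at 0.36 (95% interval 0.05 to 0.68, adjusted p 0.0547), OCLN (occludin) at 0.23 (95% interval -0.25 to 0.71), F11R (the adhesion molecule JAM-A) at -0.49 (adjusted p 0.051) and CLDN16, a claudin of the thick ascending limb, at -0.47 (adjusted p 0.107), and none of them passed in any of the 4 comparisons as first fitted. F11R passed lower in siB cells in 5 of 15 alternatives (adjusted p down to 0.00137, without siB AAI replicate 1, where it was at -0.72), TJP1 passed higher in 3 (adjusted p down to 0.0028, without siB DMSO replicate 1, where it was at 0.52), and CLDN16 passed lower with median-ratio size factors (adjusted p 0.0387) and, in SCR cells, without SCR DMSO replicate 2 (-1.21, adjusted p 0.0117).

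**Figure D2:**
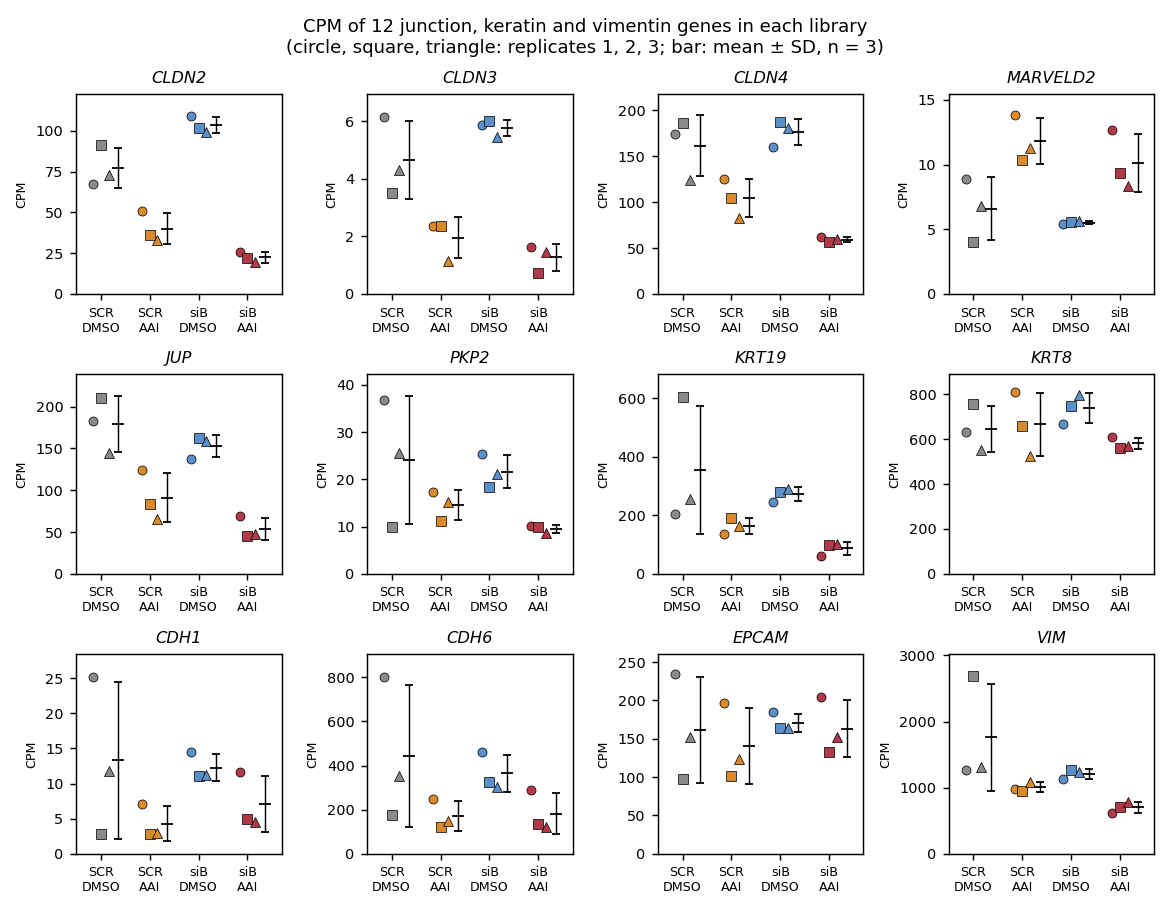
CPM (y axis, from 0) of 12 of the genes in each library (x axis, the 4 groups); circles, squares and triangles are replicates 1, 2 and 3, and bars give the mean and SD (n = 3). CLDN2, CLDN4 and JUP are lowest in siB AAI, MARVELD2 is higher with AAI, and among the SCR DMSO libraries (grey) replicate 2 lies far above the others for KRT19 and VIM, while replicate 1 lies far above them for CDH1 and CDH6, where replicate 2 is the lowest.

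The sequence before the starts of those genes is shown for the claudins and plakoglobin that fell by at least 2-fold and for MARVELD2, which rose, as far as the RefSeq promoter table (GRCh38.p14) holds them. It gave windows for 26 of the 40 genes, and had none for CDH1, CDH3, CDH6, CDH16, CTNND1, F11R, PKP2, PKP3, KRT7, KRT18, KRT19, KRT80, KRT81 and EPCAM. Each line gives the 250 bases before an annotated start, 5' to 3' on the strand of the gene, with capitals marking a GC box (GGGCGG, the core site of Sp1 and KLF factors) or an E-box (CAGGTG, the core site of Snail and ZEB factors) on either strand.
CLDN2, first start, chrX:106899914-106900163, plus strand: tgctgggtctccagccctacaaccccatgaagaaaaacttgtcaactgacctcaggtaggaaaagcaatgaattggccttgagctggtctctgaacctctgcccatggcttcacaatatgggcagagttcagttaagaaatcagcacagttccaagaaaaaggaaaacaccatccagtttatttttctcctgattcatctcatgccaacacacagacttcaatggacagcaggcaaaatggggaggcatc
CLDN2, second start, chrX:106918110-106918359, plus strand: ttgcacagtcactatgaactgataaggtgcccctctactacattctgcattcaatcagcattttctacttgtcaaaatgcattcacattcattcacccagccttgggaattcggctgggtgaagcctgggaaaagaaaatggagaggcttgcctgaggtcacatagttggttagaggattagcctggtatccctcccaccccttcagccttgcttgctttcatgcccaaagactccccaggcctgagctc
CLDN3, chr7:73770271-73770520, minus strand: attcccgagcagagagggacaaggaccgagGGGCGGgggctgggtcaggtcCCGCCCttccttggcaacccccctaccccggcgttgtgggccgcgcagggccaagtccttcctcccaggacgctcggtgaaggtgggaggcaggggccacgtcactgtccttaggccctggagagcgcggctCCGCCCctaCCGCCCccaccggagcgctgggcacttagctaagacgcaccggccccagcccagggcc
CLDN4, chr7:73830746-73830995, plus strand: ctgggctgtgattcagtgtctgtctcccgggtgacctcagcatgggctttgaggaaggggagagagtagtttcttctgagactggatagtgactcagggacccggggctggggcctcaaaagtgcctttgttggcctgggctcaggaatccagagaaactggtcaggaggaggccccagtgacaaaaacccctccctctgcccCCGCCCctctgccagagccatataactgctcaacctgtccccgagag
JUP, first start, chr17:41786712-41786961, minus strand: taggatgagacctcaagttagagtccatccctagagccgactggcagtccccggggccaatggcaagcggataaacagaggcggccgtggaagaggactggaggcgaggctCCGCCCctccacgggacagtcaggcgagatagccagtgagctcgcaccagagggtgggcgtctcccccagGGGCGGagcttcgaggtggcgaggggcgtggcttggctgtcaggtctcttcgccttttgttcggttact
JUP, second start, chr17:41785977-41786226, minus strand: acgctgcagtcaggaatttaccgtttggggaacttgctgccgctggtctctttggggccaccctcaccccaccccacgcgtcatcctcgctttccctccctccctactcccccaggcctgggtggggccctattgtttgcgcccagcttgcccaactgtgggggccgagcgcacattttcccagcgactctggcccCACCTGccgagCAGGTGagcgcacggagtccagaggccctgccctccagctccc
MARVELD2, chr5:69414866-69415115, plus strand: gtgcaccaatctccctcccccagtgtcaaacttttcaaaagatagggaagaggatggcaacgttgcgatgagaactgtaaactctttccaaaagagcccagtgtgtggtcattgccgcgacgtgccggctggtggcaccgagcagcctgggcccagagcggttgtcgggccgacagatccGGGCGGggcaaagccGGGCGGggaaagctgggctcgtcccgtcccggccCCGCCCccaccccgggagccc
Of these genes CLDN2 had no match at either start, CLDN3 had 4 GC boxes, CLDN4 had 1 and MARVELD2 had 3. JUP had 2 GC boxes before its first start and 2 E-boxes before its second. Over the members, 26 of 40 windows (65.0%) held a GC box and 9 (22.5%) an E-box, against 42.6% and 17.5% of all 35116 windows in the table, and the TATA box TATAAA was in 1 member window (CDH2), against 10.7% of all windows. The matches in the windows shown did not overlap each other. The 8 genes with an E-box were AFDN, CLDN7, DSC2, DSG2, DSP, JUP, OCLN and TJP1. As first fitted JUP passed lower with AAI in siB cells, CLDN7 was not tested, and the others did not pass. With the replicate block, whose pairing was not supported in siB cells, AFDN, DSG2, DSP and TJP1 passed higher. A match of letters is no evidence that a factor was bound.

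Among the 8 desmosome genes, 3 plaque components (JUP, PKP2 and PKP3) passed lower with AAI in siB cells, against 21.8% of all genes. No desmosomal cadherin passed. JUP (chromosome 17, 41754604 to 41786931, minus strand), plakoglobin, is shared by desmosomes and adherens junctions. Its level was 182, 211 and 144 CPM under DMSO and 124, 84.0 and 65.8 CPM under AAI in SCR cells, and 137, 162 and 159 CPM under DMSO and 69.0, 44.8 and 48.2 CPM under AAI in siB cells. AAI lowered it by -1.51 (SE 0.16, adjusted p 7.5e-05) in siB cells with no overlap. In SCR cells the groups did not overlap either, and the change was -1.0 (SE 0.28, adjusted p 0.0581, with the replicate block 0.0154). Under AAI the gap between siB and SCR cells was -0.72 (SE 0.23, adjusted p 0.0723, with the replicate block 2.4e-05).

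Plakophilins link desmosomal cadherins to desmoplakin. PKP2 (chromosome 12, 32790745 to 32896798, minus strand) stood at 36.9, 9.93 and 25.6 CPM under DMSO and 17.3, 11.2 and 15.2 CPM under AAI in SCR cells, and 25.3, 18.4 and 21.1 CPM under DMSO and 10.1, 9.83 and 8.63 CPM under AAI in siB cells. Its change with AAI was -1.10 (SE 0.16, adjusted p 4.8e-04) in siB cells, where the groups did not overlap, and -0.54 (SE 0.46, adjusted p 0.492) in SCR cells, where they did. PKP3, at 1.77 to 4.66 CPM, changed by -0.77 (SE 0.17, adjusted p 0.00488) in siB cells, whereas PKP4 was at -0.11 (95% interval -0.36 to 0.15). Desmoplakin (DSP), which anchors keratin, and the desmosomal cadherins DSG2, DSC2 and DSC3 had changes of 0.31, 0.50, 0.19 and 0.29 in siB cells, none of which passed. With the replicate block, which the pairing check did not call for in siB cells, DSP and DSG2 passed higher (adjusted p 0.0242 and 0.00163), and DSG2 also passed higher without siB DMSO replicate 1 (0.74).

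Cadherins varied widely between replicates, and 3 of 5 passed lower with AAI in siB cells, against 21.8% of all genes. CDH6 (chromosome 5, 31193686 to 31329146, plus strand) was at 803, 177 and 352 CPM under DMSO and 248.6, 120 and 148 CPM under AAI in SCR cells, and 462, 326 and 305 CPM under DMSO and 288, 134 and 120 CPM under AAI in siB cells. Its libraries did not overlap between siB DMSO and siB AAI but did in SCR cells. It changed by -1.10 (SE 0.30, adjusted p 0.0117) in siB cells, a call lost without siB AAI replicate 2 (-0.94) or 3 (-0.86), and by -1.16 (SE 0.53, adjusted p 0.204, with the replicate block 0.0154) in SCR cells.

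CDH1 (E-cadherin; chromosome 16, 68737292 to 68835537, plus strand) was at 25.2, 2.87 and 11.8 CPM under DMSO and 7.12, 2.76 and 2.98 CPM under AAI in SCR cells, and 14.4, 11.1 and 11.3 CPM under DMSO and 11.7, 4.94 and 4.55 CPM under AAI in siB cells. Groups overlapped in every comparison. With AAI, CDH1 fell by 0.82 on the log2 scale in siB cells (SE 0.30, adjusted p 0.0417), and the change of its neighbour CDH3 (P-cadherin) was -0.74 (SE 0.26, adjusted p 0.0388). Both calls depended on single libraries. That of CDH1 was lost without any of siB DMSO replicates 1, 2 and 3 (-0.71, -0.88 and -0.87) or siB AAI replicates 2 and 3 (-0.65 and -0.61), and that of CDH3 without siB DMSO replicate 2 or 3 (-0.71 and -0.67) or siB AAI replicate 2 or 3 (-0.58 and -0.56). The change of CDH1 in SCR cells was -1.14 (SE 0.66, 95% interval -2.67 to 0.39), and -1.89 without SCR DMSO replicate 2, where it passed. CDH2 (N-cadherin, the usual cadherin of proximal tubule cells) was at -0.59 (SE 0.24, adjusted p 0.156) in SCR cells and at -0.05 (SE 0.12, 95% interval -0.32 to 0.22) in siB cells. CDH16 (kidney-specific cadherin) passed in none of the 4 comparisons as first fitted, but was lower in siB than in SCR cells under AAI with the replicate block (-0.43, adjusted p 0.0331, against 0.488 without it) and lower with AAI in siB cells without siB AAI replicate 1 (-0.59, adjusted p 0.00839, against -0.29).

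Of the catenins and nectin complex genes, 1 of 5 passed lower with AAI in siB cells, against 21.8% of all genes. CTNND1 (p120 catenin, which stabilises cadherins at the membrane) was at 230, 139 and 180 CPM under DMSO and 130, 99.6 and 120 CPM under AAI in SCR cells, and 161, 164 and 154 CPM under DMSO and 110, 92.4 and 101 CPM under AAI in siB cells. The AAI libraries lay below the vehicle libraries for both siRNAs, with changes of -0.63 (SE 0.24, adjusted p 0.146, with the replicate block 0.0468) in SCR cells and -0.66 (SE 0.10, adjusted p 6.9e-04) in siB cells. CTNNB1 (beta-catenin) was at 0.09 (95% interval -0.39 to 0.58) and -0.13 (95% interval -0.34 to 0.09), and CTNNA1 (alpha-catenin) at -0.50 (95% interval -1.06 to 0.06) and -0.21 (95% interval -0.44 to 0.02). NECTIN2 and AFDN (afadin, which ties nectins to actin) passed in none of the comparisons as first fitted. With AAI in siB cells NECTIN2 (-0.27) passed lower in 3 of 15 alternatives, among them those without siB DMSO replicate 1 (-0.36) or siB AAI replicate 1 (-0.37), and AFDN (0.28) passed higher in 2, one of them without siB DMSO replicate 1 (0.53).

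KRT19, KRT18, KRT8 and KRT80 were among the most abundant of the 40 genes. With AAI in siB cells 5 of 5 keratins tested passed lower, against 21.8% of all genes. KRT19 (chromosome 17, 41523617 to 41528308, minus strand), a keratin of simple epithelia, was at 204, 604 and 256 CPM under DMSO and 135, 191 and 162 CPM under AAI in SCR cells, and 247, 280 and 291 CPM under DMSO and 62.4, 97.2 and 102 CPM under AAI in siB cells. The AAI libraries were below the vehicle libraries for both siRNAs, and siB AAI was below SCR AAI. The log2 changes with AAI were -0.97 (SE 0.39, adjusted p 0.161, with the replicate block 0.0315) in SCR cells and -1.66 (SE 0.18, adjusted p 6.9e-05) in siB cells. Under AAI siB cells differed from SCR cells by -0.91 (SE 0.21, adjusted p 0.0182), which was lost without SCR AAI replicate 2 (-0.79) or 3 (-0.91), without siB AAI replicate 1 (-0.69), and in the fit over all 4 groups (adjusted p 0.134).

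KRT80 changed by -0.78 (SE 0.16, adjusted p 0.00286) with AAI in siB cells. KRT7, another keratin of simple epithelia, was at 99.8, 197 and 62.7 CPM under DMSO and 60.8, 45.1 and 37.0 CPM under AAI in SCR cells, and 50.6, 60.1 and 62.1 CPM under DMSO and 41.6, 33.7 and 37.6 CPM under AAI in siB cells. The AAI libraries of KRT7 were below the vehicle libraries for both siRNAs. Its change was -0.60 (SE 0.13, adjusted p 0.00426) in siB cells, a call lost in the fit over all 4 groups (adjusted p 0.185), and -1.18 (SE 0.41, adjusted p 0.109, with the replicate block 0.0277) in SCR cells. The KRT8 and KRT18 pair moved together and less, by -0.34 (SE 0.10, adjusted p 0.0189) and -0.36 (SE 0.10, adjusted p 0.0133), from 737 ± 66.4 to 581 ± 25.6 CPM for KRT8. Both calls were lost without siB DMSO replicate 2 (-0.33 and -0.35) or 3 (-0.28 and -0.34), and that of KRT8 also without siB AAI replicate 3 (-0.33). In SCR cells KRT8 was at 0.03 (95% interval -0.52 to 0.59) and KRT18 had a 95% interval of -0.50 to 0.49. KRT81, a hair keratin with a close paralog, KRT86, lay between 0.299 and 2.24 CPM. In siB cells it had 0.299, 0.361 and 0.502 CPM with DMSO and 0.884, 1.15 and 1.39 CPM with AAI. It was too low to be tested there as first fitted, but in the fit without a filter it passed higher.

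Reads of KRT8 and KRT18 can be shared with their processed copies, whose rows were summed. The 50 KRT8 copies had 5.47 ± 0.989 CPM under DMSO and 16.5 ± 2.68 CPM under AAI in SCR cells, and 6.43 ± 2.17 CPM under DMSO and 26.7 ± 3.25 CPM under AAI in siB cells (SD, n = 3), from 0.847% to 4.59% of KRT8 itself. The 67 KRT18 copies went from 2.01 ± 0.687 CPM in siB DMSO to 12.7 ± 4.02 CPM in siB AAI. In siB cells the copies were higher with AAI, where KRT8 and KRT18 themselves fell. Values of this pair are uncertain by this share, and how reads were split between copies was not tested.

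Connexins were low to moderate. GJA1 (connexin 43) had 72.7, 22.6 and 42.0 CPM under DMSO and 23.2, 18.1 and 28.7 CPM under AAI in SCR cells, and 25.3, 18.9 and 18.9 CPM under DMSO and 11.7, 17.4 and 14.6 CPM under AAI in siB cells. The changes with AAI in siB cells were -0.50 (SE 0.19, adjusted p 0.0452) for GJA1 and -0.48 (SE 0.17, adjusted p 0.0416) for GJB2 (connexin 26), which stood at 0.536 to 2.76 CPM in all libraries. Both were near the threshold, and in siB cells GJB2 reached 1 CPM under DMSO alone, so that it entered the test through the higher group. GJA1 was lost without siB DMSO replicate 1, 2 or 3 (-0.37, -0.57 and -0.57) or siB AAI replicate 1 or 3 (-0.36 and -0.51), and GJB2 without siB DMSO replicate 1, 2 or 3 (-0.50, -0.46 and -0.48) or siB AAI replicate 2 or 3 (-0.53 and -0.37).

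The adhesion molecule EPCAM, which is found on most simple epithelia, passed in no comparison. It stood at 234, 97.4 and 153 CPM under DMSO and 196, 101 and 124 CPM under AAI in SCR cells, and 184, 164 and 164 CPM under DMSO and 204, 133 and 152 CPM under AAI in siB cells, with a change of -0.09 (SE 0.15, 95% interval -0.43 to 0.26) with AAI in siB cells. VIM (vimentin), the intermediate filament of mesenchymal cells and of most cultured cells, fell with the keratins. It was at 1270, 2694 and 1313 CPM under DMSO and 978, 945 and 1092 CPM under AAI in SCR cells, and 1125, 1266 and 1242 CPM under DMSO and 620, 699 and 785 CPM under AAI in siB cells. All siB AAI libraries were below all others. AAI lowered VIM by -0.79 (SE 0.11, adjusted p 3.7e-04) in siB cells, and the change in SCR cells was -0.72 (SE 0.32, adjusted p 0.194), while siB differed from SCR under AAI by -0.52 (SE 0.16, adjusted p 0.0623, with the replicate block 0.00192).

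SCR DMSO replicate 2 bore on many of these values. Within SCR DMSO this library was the lowest of the 3 for 23 of the 40 genes and the highest for 13. Relative to the mean of replicates 1 and 3 it was lower by 2.37 for CDH3 and by 2.24 for CDH1, written as -2.37 and -2.24 on the log2 scale, and it stood at -1.89 for DSP, -1.58 for CDH6, 1.40 for KRT19, 1.30 for KRT7 and 1.06 for VIM. Replicate 1 was the highest library for 24 of the 40 genes in SCR DMSO, 27 in SCR AAI, 24 in siB DMSO and 31 in siB AAI.

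**Figure D3:**
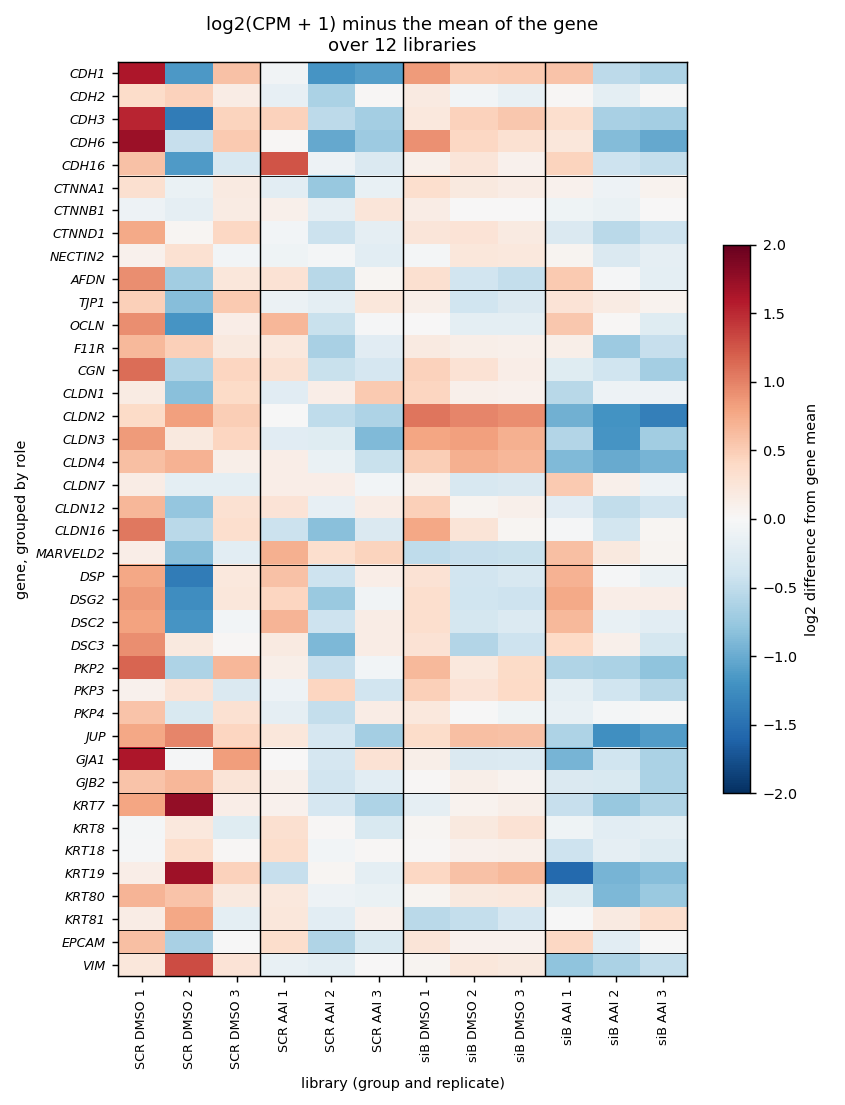
log2 of CPM plus 1 of each of the 40 genes (rows, grouped by role) in the 12 libraries (columns), minus the mean of the gene, from blue (lower) to red (higher), with colours saturated at 2. SCR DMSO replicate 2 is blue for CDH1, CDH3, CDH6, CDH16, DSP, DSG2, DSC2 and PKP2 and red for KRT7, KRT19 and VIM, and the siB AAI libraries are blue for CLDN2, CLDN4, JUP, KRT19 and VIM.

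The departures of SCR DMSO replicate 2 went with gene span. In SCR DMSO replicate 2 the median departure of members was 0.12 for the 15 tested genes under 30 kb, -0.75 for the 16 of 30 to 100 kb and -1.26 for the 8 over 100 kb, against 0.13, -0.48 and -0.81 for all genes of those classes. The difference between siB and SCR cells under AAI had medians of -0.38, -0.03 and 0.14 in the same order, against -0.07, 0.01 and 0.13 for all genes, and Spearman's rho with log10 span was 0.58 (Pearson's r 0.54) across 38 genes. With AAI in siB cells the medians were -0.55, -0.30 and -0.16, against 0.05, 0.19 and -0.03 for all genes (rho 0.35, r 0.37). In SCR cells, with AAI, rho was 0.06 across 39 genes. The genes share libraries and are not independent, and the part of span in the changes was not tested. Spans run between the outermost annotated bounds. For CLDN4 and KRT8, both classed at 30 to 100 kb, the RefSeq start lies inside these bounds, so their spans depend on the start used.

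**Figure D4:**
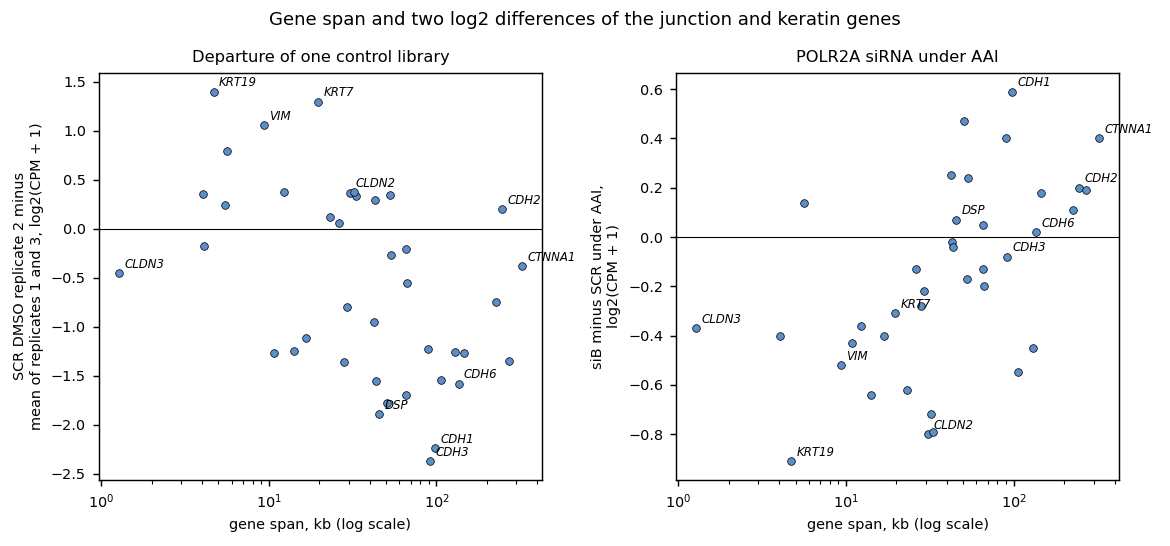
Gene span (x axis, kb, log scale) of the 40 genes against the departure of SCR DMSO replicate 2 from the mean of replicates 1 and 3 (left) and, for the 38 genes tested, against the difference between siB and SCR cells under AAI (right), both as log2 of CPM plus 1. CDH3 and CDH1 lie lowest on the left, and KRT19 is highest on the left and lowest on the right.

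Other genes of the same structures passed in both directions. Of 134 listed adherens, tight, desmosome and gap junction and keratin genes that are not among the 40, 73 were tested with AAI in siB cells, with 19 lower and 20 higher, against 21.8% lower and 30.4% higher among all genes, and a median log2 change of 0.11 against 0.10 for all genes. In SCR cells 5 of 66 were lower and 8 higher, against 3.36% and 8.98% of all genes. Under AAI 2 of 72 were lower and 5 higher in siB than in SCR cells, against 3.79% and 5.49%. These counts include genes that entered the test only through the group in which they were high. By list in siB cells, 8 adherens junction genes passed lower and 6 higher of 23 tested, 9 tight junction genes passed in each direction of 31, 1 gap junction gene lower and 3 higher of 9, 1 keratin in each direction of 7, and 1 desmosome gene (PERP) higher of 3. The 8 hemidesmosome genes, which anchor cells to the basement membrane, gave 1 lower (ITGB4) and 2 higher (COL17A1 and DST).

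Some of these genes changed by more than CLDN2 did. CDH4 (R-cadherin) rose from 1.34 ± 0.193 to 28.7 ± 2.55 CPM in SCR cells (log2 change 3.66, SE 0.23, adjusted p 9.1e-05) and from 1.22 ± 0.170 to 46.5 CPM in siB cells (4.41, SE 0.17, adjusted p 3.4e-07), and was higher in siB than in SCR cells under AAI (0.67, SE 0.18, adjusted p 0.0345, up to 0.134 in the alternatives). CLDN15, a pore-forming claudin, rose by 2.05 (SE 0.25, adjusted p 0.00168) and 1.70 (SE 0.14, adjusted p 1.6e-05), while CLDN2, CLDN3 and CLDN4 fell in siB cells. Lower with AAI in both SCR and siB cells were MAGI1, a tight junction scaffold (-1.83 and -1.63), and CTNNBIP1, an inhibitor of beta-catenin (-1.22 and -1.17), with adjusted p from 5.6e-04 to 0.039, and FRMD5 (-1.52 and -0.81, adjusted p 0.032 and 0.00226). The calls of MAGI1, CTNNBIP1 and FRMD5 in SCR cells were lost in some alternatives (adjusted p up to 0.0877, 0.172 and 0.127). GJD3 fell by 1.35 (adjusted p 4.5e-04) in siB cells. Under AAI KRT10 was lower in siB than in SCR cells (-0.85, adjusted p 0.0153, up to 0.123 in the alternatives).

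A few low genes entered a test only through the group in which they were high, so their levels are given without a test. CLDN9 had 0.722 CPM under DMSO and 4.10 CPM under AAI in SCR cells, and 0.365 and 8.60 CPM in siB cells. In the same order NECTIN4 had 0.349, 1.52, 0.314 and 4.81 CPM, CLDN6 0.0898, 0.754, 0.216 and 3.06 CPM, and CLDN14 0.662, 0.625, 0.746 and 2.48 CPM (means, n = 3). All 4 were highest in siB AAI. CLDN23 was lowest there, with 1.91, 2.34, 2.84 and 0.805 CPM.

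Regulators of the epithelial and mesenchymal states went both ways. Of 15 tested of 19 listed, 6 passed lower and 4 higher with AAI in siB cells, against 21.8% lower and 30.4% higher among all genes. SNAI1 (Snail, a repressor of junction genes) stood at 14.3 ± 3.63 CPM under DMSO and 32.0 ± 8.36 CPM under AAI in SCR cells (1.11, SE 0.30, adjusted p 0.0518, with the replicate block 0.0342), and rose in siB cells from 15.2 ± 2.996 to 46.7 CPM (1.56, SE 0.19, adjusted p 1.4e-04), without overlap in either. KLF4 rose with AAI in SCR cells (1.72, adjusted p 0.00586) and siB cells (0.84, adjusted p 0.00375), and ZEB2 (0.73, adjusted p 0.0136) and SNAI3 (0.83, adjusted p 0.0189) rose in siB cells. The epithelial splicing factors ESRP1 (-0.98, adjusted p 0.00101) and ESRP2 (-1.03, adjusted p 1.7e-04) and the epithelial factor OVOL2 (-0.65, adjusted p 0.0113) fell in siB cells, as did SNAI2 (-0.59, adjusted p 0.0141), TWIST1 (-0.51, adjusted p 0.025) and TCF3 (-0.47, adjusted p 0.00322). ESRP2 was also lower in siB than in SCR cells under AAI (-0.76, adjusted p 0.0348, up to 0.152 in the alternatives). In siB cells the calls of ZEB2, SNAI3, SNAI2, TWIST1 and TCF3 were lost in some alternatives (adjusted p up to 0.0606, 0.0567, 0.0734, 0.277 and 0.0898). ZEB1 (0.48), TCF4 (-0.54), GRHL1 (0.24), ELF3 (-0.37) and KLF5 (-0.37) did not pass in siB cells. TWIST2, GRHL2, GRHL3 and OVOL1 were too low to be tested, with TWIST2 at 0 in all 12 libraries.

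Mesenchymal genes passed in both directions with AAI. Of 11 tested in siB cells, COL1A1, COL5A1 and FN1 passed lower and ACTA2 and TAGLN higher, against 21.8% lower and 30.4% higher among all genes. In SCR cells COL5A1 passed lower (-1.34, adjusted p 0.0458, up to 0.168 in the alternatives), against 3.36% of all genes. The list leaves out VIM. COL1A1, the main collagen of fibroblasts, changed by -1.37 (SE 0.30, adjusted p 0.00408) in siB cells. FBN1 (fibrillin) was 1.14 higher in siB than in SCR cells under AAI (SE 0.19, adjusted p 0.00433). In that comparison 9 of the 11 genes were above 0 and 2 below, with a median log2 difference of 0.36 against 0.0 for all genes. FBN1 alone passed. In vehicle 3 of the 11 were above 0 and 8 below.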

How the data were processed

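RNA sequencing of 12 HK-2 libraries was analysed from the deposited table. According to the study's methods, paired-end reads were mapped by the authors to hg38 and assigned to genes of a UCSC annotation. The aligner and the use of strand are not given in the sources used here, so sense and antisense reads cannot be told apart. The authors deposited log10 values, log10 of CPM plus 1. CPM was recovered from these log10 values, as were whole reads (at least 99.995% of values whole within 0.05 reads). Groups came from sample titles, because a treatment field reads DMSO for every sample.

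limma 3.58.1 (R 4.3.3; lmFit and eBayes with a mean-variance trend) took as input log2(CPM + 1), a pseudocount of 1, which understates changes of low genes, for each pair of groups, on genes with at least 1 CPM in at least 3 libraries fitted. Adjusted p is Benjamini-Hochberg over all genes tested, and intervals are 95%. The interaction was fitted over 4 groups. On data simulated for AAI in SCR cells (14228 genes), the test recovered 18% of genes changed 2-fold and 69% of those changed 4-fold. The simulated spread of a gene was averaged over all 4 groups, and libraries were drawn independently. Departures shared by many genes of a library, as in SCR DMSO replicate 2, were left out, so these shares may not hold for the real SCR libraries. The fits were repeated without a filter, with a mean CPM filter of 5, with 0.1 as pseudocount, on values rescaled by median-ratio size factors, over all 4 groups at once, with a replicate block, with voom on recovered reads, without the trend, without each library in turn and, added after seeing the data, with CPM computed without AC010970.2, a transcript that took 0.189% to 10.6% of reads.

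Whether replicate numbers pair libraries was checked through the correlation of deviations from group means over 15325 genes. Same-numbered libraries correlated at 0.338 to 0.473 for AAI in SCR cells and 0.292 to 0.614 for knockdown under AAI, which were taken as paired, and at 0.026 to 0.21 and -0.193 to 0.726 in the other comparisons, which were not. Paired meant that every same-numbered pair was over 0.1. Differently numbered libraries correlated at -0.593 to 0.159 for AAI in SCR cells and -0.443 to 0.224 for knockdown under AAI. The counts, intervals and adjusted p as first fitted leave this pairing out. Only the values given with the replicate block take it in.

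The members, gene lists and the rule for naming genes were chosen with earlier results of these data known, and the study chose its own junction genes on these samples, so counts over them are no independent evidence. All 40 members are described. Of other lists, up to 5 genes each way per comparison were named, with the largest change among those that passed, had a mean of at least 1 CPM and did not overlap, and all regulators of the epithelial and mesenchymal states. Some genes picked by this rule are not reported here. Counts within lists name some further genes whose values were seen. Positions and spans came from GENCODE 44 on hg38, and promoter windows from RefSeq.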

Additional observations from a re-analysis of the deposited data

Results flagged for a closer look

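The AAI response of CLDN2 differed between SCR and siB cells by -1.22 on the log2 scale (siB minus SCR, limma, adjusted p 0.0452), being -0.94 in SCR cells and -2.16 in siB cells, with all siB AAI libraries below all SCR AAI libraries. It passed in 4 of 20 alternatives. CLDN14, a claudin outside the 40 genes, differed by 1.03 on the log2 scale in the other direction. It went from 0.746 CPM in siB DMSO to 2.48 CPM in siB AAI, against 0.662 and 0.625 CPM in SCR cells. CLDN14 entered the test through siB AAI, the 1 group in which it was high. That group also makes the difference, so the fit cannot decide whether the response differed, and the size is given without a p-value.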

How the results depend on the processing

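Members that passed lower with AAI in SCR cells numbered 1 as reported, 0 without a filter and with a mean CPM filter of 5, 4 with median-ratio size factors, 9 in the fit over all 4 groups (with 1 higher), 8 with the replicate block, and 0 to 11 with a library left out. Lower calls over all genes moved with these settings too, from 478 as reported to 911 with the replicate block and 1318 over all 4 groups. With AAI in siB cells 21 became 10 in the fit over all 4 groups, and 15 to 22 with a library left out. The 1 gene that passed higher there became 2 without a filter (with KRT81) or without AC010970.2 (with TJP1), 5 with the replicate block, and 1 to 4 with a library left out. For knockdown under AAI 3 lower became 5 with median-ratio size factors or without AC010970.2, 12 with the replicate block (3 higher), and 1 to 5 with a library left out (0 to 2 higher). The block there also gave 2057 lower and 2268 higher of all 14946 genes. The interaction count of 1 became 0 with a pseudocount of 0.1, a mean CPM filter of 5, median-ratio size factors, voom or no trend, and 0 to 4 with a library left out. Counts for knockdown in DMSO stayed at 0 in every fit, the replicate block included. Of 68 member changes that passed in at least 1 fit, 2 turned sign in 1 refit each, neither of them past the threshold: CDH3 with AAI in SCR cells without SCR DMSO replicate 1 (0.22, range with a library left out -1.23 to 0.22) and CDH16 under AAI without SCR AAI replicate 1 (0.05, range -0.73 to 0.05). Among 2021 refits of changes that never passed, 151 changed sign. Median-ratio size factors moved the median of all genes with AAI in SCR cells from 0.18 to -0.02 and that of the members from -0.48 to -0.68. The cause of these shifts was not tested. The replicate block in siB cells, whose pairing was not supported, lost 1 call (GJB2, adjusted p 0.0529). Depth limits the lowest members, CLDN7, KRT81 and GJB2, and with 3 libraries a group most 2-fold changes could be missed in SCR cells.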
